A study of Macaca mulatta with 6 samples.

Results

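The insulin-like growth factor (IGF) family was followed in bulk RNA sequencing of cultured rhesus monkey testis cells. The study describes them as spermatogonial stem cells (SSCs), the self-renewing source of sperm. The members were 10 genes taken by name, namely the ligands IGF1 and IGF2, the receptors IGF1R and IGF2R, and the binding proteins IGFBP2, IGFBP3, IGFBP4, IGFBP5, IGFBP6 and IGFBP7. The count table holds 17795 genes, of which 8 are members and were analysed, while IGFBP2 and IGFBP6 were not analysed here. All 8 were among the 11539 genes that passed the filter on low counts. None of the 8 had counts identical to those of another gene. In assembly Mmul_10, IGF1 lies at chr11:102171555-102254490 and IGF2 at chr14:2192527-2219265, both on the minus strand. IGF1R lies at chr7:77827465-78139764 on the plus strand and IGF2R at chr4:10488719-10622044 on the minus strand. Of the binding protein genes, IGFBP3 (chr3:69448222-69457073), IGFBP4 (chr16:51596342-51610726) and IGFBP7 (chr5:76516464-76603185) are on the plus strand and IGFBP5 (chr12:104059457-104080228) is on the minus strand.

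The SSC PDGF+ group was grown with human platelet-derived growth factor (PDGF) and the SSC PDGF- group without it, with 3 libraries each. According to the culture methods, cells from Macaca mulatta testis were embedded in hydrogel droplets under a serum-containing medium with GDNF, EGF, bFGF, LIF and Wnt3a. Donor age, days in culture and the separateness of the cultures are not given for these libraries, so the p-values measure the spread between libraries, which may be partly technical. In both groups the labels place replicate 1 in batch 1 and replicates 2 and 3 in batch 2.

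Library totals ran from 13095467 to 14102697 counts in SSC PDGF+ and from 10593805 to 11605908 in SSC PDGF-. The labels give testis and the study describes SSCs, and the germ cell markers were uneven. DDX4, a germ cell RNA helicase, had 9, 2 and 2 counts with PDGF against 18, 38 and 13 without it. The pan-germ cell list, with 5 of its 6 genes analysed, summed to 0.376 to 1.28 CPM (counts scaled to library size with TMM factors) with PDGF and 4.80 to 9.10 CPM without, and 2 of its genes fell. The undifferentiated spermatogonia list, with 9 of 12 genes analysed, summed to 472 to 518 CPM with PDGF and 430 to 532 CPM without. ID4, UCHL1 and ETV5 made up most of that sum, while NANOS2 was at 0 and GFRA1, ZBTB16, SALL4 and PIWIL4 stayed below 1 CPM in every library. UCHL1 rose and FGFR3 fell. The spermatid list, with 5 of 8 genes analysed, summed to 48.9 to 77.0 CPM with PDGF and 417 to 689 CPM without, and all 3 genes tested (TNP1, TNP2 and TMEM190) fell. TNP1, a transition protein of sperm chromatin, fell by 3.30 on the log2 scale (SE 0.27, edgeR adjusted p = 2.4e-04). The part of germ cells in the IGF differences was not tested. The 8 stromal fibroblast markers summed to 14426 to 19598 CPM in SSC PDGF+ and 18075 to 19816 CPM in SSC PDGF-, and 3 of them fell with PDGF. These sums were far above those of the germ cell lists in every library. In bulk libraries, fewer cells of a type and less RNA per cell cannot be told apart.

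IGF1 and IGF2 are small secreted hormones related to insulin that promote growth and survival through the tyrosine kinase receptor IGF1R. IGF2R, the cation-independent mannose 6-phosphate receptor, carries IGF2 to the lysosome and has no kinase domain. The binding proteins hold the ligands in the extracellular space, and proteases such as PAPPA release them again. In the testis, IGF signaling acts on Leydig cells, Sertoli cells and spermatogonia. The study uses IGF1 as a Leydig cell marker in its atlas and elsewhere names DLK and IGF for these cells.

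The binding proteins are recognised by a run of cysteines near the N-terminus, which is shown here because it marks which of the analysed genes share the family fold. Each stretch below is coding sequence from the RefSeq transcripts of assembly Mmul_10, 5′ to 3′ on the gene's own strand, with the codons of the 8-residue motif in capitals. The motif reads glycine, cysteine, glycine, cysteine, cysteine, any 2 residues and cysteine in IGFBP3, IGFBP4 and IGFBP5, while in IGFBP7 its first residue is not glycine. All 4 stretches lie in exon 1, at chr3:69448548-69448577 on the plus strand for IGFBP3, chr16:51596562-51596591 on the plus strand for IGFBP4, chr12:104079221-104079250 on the minus strand for IGFBP5 and chr5:76517474-76517503 on the plus strand for IGFBP7.
IGFBP3: ccgGGCTGCGGCTGCTGCCTGACGTGCgcg
IGFBP4: cccGGCTGCGGCTGTTGCGCCACTTGTgcc
IGFBP5: ccgGGCTGCGGCTGCTGCATGACCTGCgcc
IGFBP7: gacGCGTGCGGCTGCTGCCCGATGTGCgca

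IGFBP3 and IGFBP5 also carry a basic stretch near the C-terminus that is known to bind heparin and the cell matrix, and it is shown because these are the binding proteins with the clearest differences below. The 19-residue stretches have the codons of lysine and arginine in capitals, which number 10 in IGFBP3, 10 in IGFBP5 and 3 at the same place in IGFBP4. Each spans the junction of exons 3 and 4, within chr3:69452906-69454553 for IGFBP3, chr12:104064209-104065492 for IGFBP5 and chr16:51606576-51609818 for IGFBP4.
IGFBP3: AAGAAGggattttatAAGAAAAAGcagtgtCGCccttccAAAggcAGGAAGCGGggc
IGFBP5: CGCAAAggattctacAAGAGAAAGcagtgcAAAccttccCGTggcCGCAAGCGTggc
IGFBP4: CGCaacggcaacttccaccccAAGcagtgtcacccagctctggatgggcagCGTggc

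Over the whole encoded protein, IGFBP3 and IGFBP5 were identical at 48.8% of 260 aligned residues, the highest of the 6 pairs. IGFBP4 shared 43.7% with IGFBP5 and 38.1% with IGFBP3. IGFBP7, which binds IGFs weakly and lacks the C-terminal domain of the others, shared 30.0% to 31.0% with each of them.

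With PDGF, IGFBP5 and IGF2R transcripts rose and IGFBP3 and IGF1 transcripts fell. IGFBP5 changed most, to 4.97 times its level without PDGF, and IGFBP3 fell to 0.448 times. IGF2, IGF1R, IGFBP4 and IGFBP7 did not pass the threshold (edgeR's quasi-likelihood test, Benjamini-Hochberg adjusted p under 0.05). Of the 8 members, 2 were called higher and 2 lower, where 7.61% of all genes tested were called higher and 10.7% lower. The median log2 fold change was 0.04 over the members and 0.02 over all genes tested, while the median absolute value was 0.72 against 0.35. When replicate number entered the fit as a block, 4 members were called higher and 3 lower, beside 31.1% and 29.0% of all genes tested. In 2 members all SSC PDGF+ libraries lay above all SSC PDGF- libraries, and in 2 they lay below, which 18.2% and 19.3% of the genes tested also did.

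**Figure D1:**
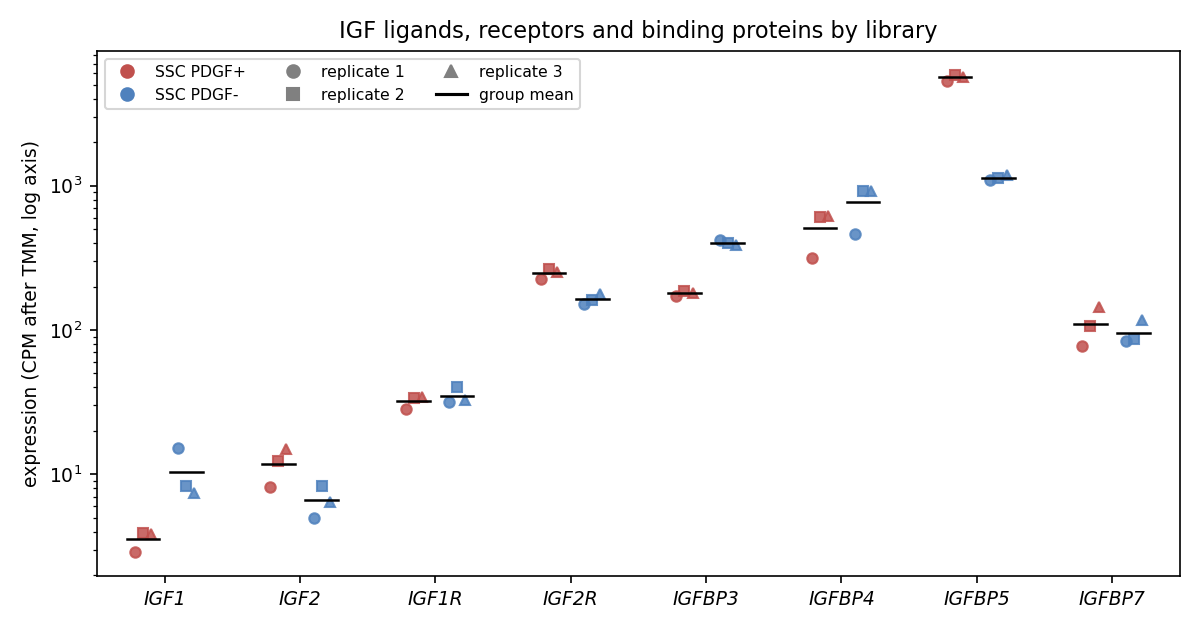
Expression of the 8 members in each library, in CPM after TMM normalization on a log axis, with SSC PDGF+ in red, SSC PDGF- in blue, symbols for replicates 1 to 3 and a black line at each group mean. The groups are apart for IGF1, IGF2R, IGFBP3 and IGFBP5 and overlap for the other members, and heights should be compared within a gene because CPM are not corrected for length.

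Among the ligands, IGF1 fell with PDGF. It had 43, 50 and 51 counts in SSC PDGF+ replicates 1, 2 and 3, or 2.90, 3.91 and 3.83 CPM. The SSC PDGF- replicates had 185, 87 and 76 counts, or 15.2, 8.33 and 7.45 CPM. Every library with PDGF was below every library without it, and SSC PDGF- replicate 1 stood above its group. The means were 3.55 ± 0.560 CPM (SD of 3 libraries) and 10.3 ± 4.24 CPM (SD of 3 libraries), which edgeR fitted as -1.55 on the log2 scale (SE 0.32, adjusted p = 0.014). Summing replicates 2 and 3 removed the call (edgeR adjusted p = 0.063). The log2 difference was -2.38 in batch 1 and -1.02 in batch 2. The interaction of batch and PDGF for IGF1 was 1.36 (standard error 0.46) with an edgeR adjusted p = 0.97 and an unadjusted p = 0.0073. No gene of 11539 passed the adjusted threshold for this interaction in edgeR, and 526 had an unadjusted p under 0.05.

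Because IGF1 is used as a Leydig cell marker, the other Leydig cell genes were read beside it. Their 8-gene list summed to 263 to 330 CPM with PDGF and 218 to 263 CPM without, and none of the 3 with enough counts to be tested passed without a block. STAR, which moves cholesterol into mitochondria, made up most of that sum at 296 ± 34.5 CPM (SD of 3 libraries) against 234 ± 19.5 CPM (SD of 3 libraries). LSM1 had the same Pearson correlation with IGF2 over the libraries as STAR (r = 0.995721 for each). Whether these genes share the same counts was not checked, so the STAR values and the list sum are uncertain. DLK1, a membrane protein of immature Leydig cells, was at 4.95 CPM with PDGF and 2.33 CPM without on average, higher with PDGF where IGF1 was lower. The fit blocked on replicate called STAR and DLK1 higher (edgeR adjusted p = 6.1e-06 and 0.0035). The steroidogenic enzyme CYP11A1 had no count in any library, and INSL3, a Leydig cell hormone, had 1 count in all. CYP17A1 had 34, 30 and 33 counts with PDGF against 10, 35 and 18 without it, and HSD3B2 had 8, 6 and 5 against 1, 2 and 2. Lower with PDGF, as IGF1 was, were HSD17B3 (0, 4 and 2 counts against 10, 20 and 1) and LHCGR (0, 0 and 0 against 0, 0 and 8). In both of these the groups overlapped. HSD3B2, HSD17B3 and LHCGR had too few counts to be tested. The part of Leydig cells in the IGF1 difference was not tested beyond these values.

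IGF2 had 120, 158 and 198 counts with PDGF, or 8.10, 12.4 and 14.9 CPM. Without PDGF it had 61, 87 and 66 counts, or 5.01, 8.33 and 6.47 CPM. SSC PDGF+ replicate 1 lay just below SSC PDGF- replicate 2, so the groups overlapped, although within each batch every library with PDGF was above those without. The means of IGF2 were 11.8 ± 3.42 CPM (SD of 3 libraries) and 6.60 ± 1.67 CPM (SD of 3 libraries), a log2 fold change of 0.84 (standard error 0.29) that missed the threshold (edgeR adjusted p = 0.086). Within batches the log2 difference was 0.69 and 0.88, and the fit blocked on replicate called the gene (edgeR adjusted p = 7.3e-04). IGF2 was called in 5 of the 17 alternative fits, among them DESeq2 (adjusted p = 0.044) and 1 of the 6 edgeR fits with a library left out, that without SSC PDGF+ replicate 1 (0.031, otherwise 0.098 to 0.24). With replicates 2 and 3 summed its edgeR adjusted p was 0.30.

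Per kilobase of exon, IGF2 was at 5.79, 6.56 and 8.05 times the level of IGF1 in SSC PDGF+ replicates 1, 2 and 3. In SSC PDGF- the ratio was 0.684, 2.07 and 1.80, so IGF1 was the more abundant ligand in 1 library only. Both ligands together came to 3.48 ± 0.946 CPM per kb (SD of 3 libraries) with PDGF and 2.99 ± 0.340 CPM per kb (SD of 3 libraries) without, and these groups overlapped.

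The genes most like IGF1 across the 6 libraries, by Pearson correlation of log2(CPM + 1) among 10306 genes, were TCEAL2, N4BP2L1 and LETM2, with r = 0.991, 0.990 and 0.990. For IGF2 they were LSM1, STAR and MDGA1, with r = 0.996, 0.996 and 0.993. LSM1 and STAR had the same r before rounding (0.995721), so they may hold the same counts, which was not checked. These are descriptions over 6 libraries that share 2 conditions and 2 batches.

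The receptors differed from each other in how they moved. IGF1R, the signaling receptor, was at 28.4, 33.5 and 34.3 CPM in SSC PDGF+ and at 31.7, 40.1 and 32.8 CPM in SSC PDGF-. The groups overlapped, and the log2 fold change of -0.12 was smaller than its standard error of 0.17 (edgeR adjusted p = 0.65). Its log2 difference was -0.16 in batch 1 and -0.10 in batch 2.

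IGF2R rose with PDGF. It was at 224, 265 and 251 CPM in SSC PDGF+ and at 153, 161 and 177 CPM in SSC PDGF-, with every library with PDGF above every library without. The means were 247 ± 20.7 CPM (SD of 3 libraries) and 163 ± 12.2 CPM (SD of 3 libraries), which edgeR fitted as 0.60 on the log2 scale (SE 0.13, adjusted p = 0.017). Batch 1 gave a difference of 0.55 and batch 2 one of 0.61. The IGF2R call depended on single libraries. Its edgeR adjusted p was 0.080 when SSC PDGF+ replicate 2 was left out, 0.069 for SSC PDGF+ replicate 3, 0.077 for SSC PDGF- replicate 2, and 0.21 once replicates 2 and 3 were summed. Per kilobase, IGF2R was at 4.25 to 4.59 times the level of IGF1R with PDGF and at 2.33 to 3.12 times without.

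Among the binding proteins IGFBP5 rose, IGFBP3 fell, and IGFBP4 and IGFBP7 did not pass the test. IGFBP5, a binding protein that attaches to extracellular matrix, was at 5325, 5888 and 5712 CPM in SSC PDGF+. In SSC PDGF- it was at 1094, 1136 and 1178 CPM. The 3 libraries of each group lay close together and far from the other group. The means were 5642 ± 288 CPM (SD of 3 libraries) and 1136 ± 41.7 CPM (SD of 3 libraries), which edgeR fitted as 2.31 on the log2 scale (SE 0.11, adjusted p = 3.4e-05). Within batches the log2 difference was 2.28 and 2.33, and IGFBP5 stayed past the threshold in edgeR with any 1 library left out, at adjusted p of 2.3e-05 to 0.0012. This single gene took 0.566 ± 0.00804% of all counts (SD of 3 libraries) with PDGF and 0.113 ± 0.00224% (SD of 3 libraries) without.

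IGFBP3, the main IGF carrier of blood plasma, moved the other way. It was at 173, 188 and 179 CPM in SSC PDGF+ and at 419, 399 and 387 CPM in SSC PDGF-, with no overlap. The means were 180 ± 7.28 CPM (SD of 3 libraries) and 402 ± 16.5 CPM (SD of 3 libraries), which edgeR fitted as -1.16 on the log2 scale (SE 0.12, adjusted p = 6.0e-04). The log2 difference of IGFBP3 was -1.28 within batch 1 and -1.10 within batch 2, while its adjusted p stayed between 6.5e-04 and 0.0063 in edgeR with any 1 library left out. The ratio of IGFBP5 to IGFBP3 per kilobase was 13.98, 14.3 and 14.5 with PDGF and 1.19, 1.29 and 1.38 without. The pair most alike in sequence, including the basic stretch printed above, thus moved in opposite directions.

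IGFBP4, which mostly inhibits IGF action, was at 315, 606 and 613 CPM in SSC PDGF+ and at 461, 922 and 919 CPM in SSC PDGF-. In both groups replicate 1, the library of batch 1, was the low one. The groups overlapped, and the log2 fold change of -0.59 (standard error 0.33) missed the threshold in edgeR (adjusted p = 0.25). Within batches the IGFBP4 difference was -0.55 and -0.60, and the fit blocked on replicate called it (log2 fold change -0.58, edgeR adjusted p = 2.9e-11). IGFBP4 was called in 1 of the 6 edgeR fits with a library left out, that without SSC PDGF- replicate 1 (adjusted p = 0.037, otherwise 0.25 to 0.53). Without SSC PDGF+ replicate 1 its log2 difference was -0.32, and with replicates 2 and 3 summed its adjusted p was 0.53.

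IGFBP7 was at 77.6, 107 and 144 CPM in SSC PDGF+ and at 84.3, 87.2 and 117 CPM in SSC PDGF-. The groups overlapped, and edgeR fitted a difference of 0.19 on the log2 scale (SE 0.24, adjusted p = 0.61). Batch 1 gave a difference of -0.12 and batch 2 one of 0.30, and the block put IGFBP7 at an edgeR adjusted p = 0.04998. With batch as a term in place of the block it was 0.15, and with replicates 2 and 3 summed 0.83. Of the 1938 exon bases of IGFBP7 in Mmul_10, 838 overlap exons of POLR2B on the opposite strand, and the strand setting of the counting is not given, so its reads are less certain than those of the other members.

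**Figure D2:**
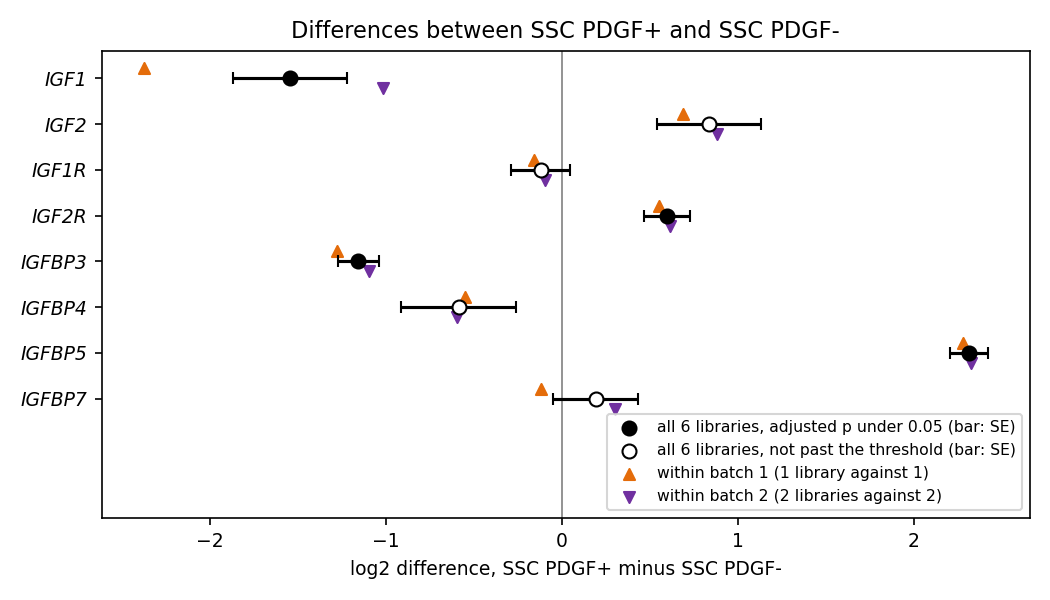
Log2 differences of the 8 members, SSC PDGF+ minus SSC PDGF-, from the edgeR fit on all 6 libraries (circles, filled where the adjusted p was under 0.05, with bars of 1 standard error) and within batch 1 and batch 2 (triangles, 0.5 counts added). IGF1 has the widest gap between batches, -2.38 against -1.02, and IGFBP7 is the member whose sign differs between batches.

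Levels per kilobase of exon placed IGFBP5 first with PDGF, at 896 ± 45.8 CPM per kb (SD of 3 libraries), followed by IGFBP4 at 310 ± 102.9 CPM per kb (SD of 3 libraries). Without PDGF the order was IGFBP4 at 465 ± 161 CPM per kb (SD of 3 libraries), IGFBP5 at 180 ± 6.63 CPM per kb (SD of 3 libraries) and IGFBP3 at 140 ± 5.76 CPM per kb (SD of 3 libraries). The remaining members kept their places in both groups, from IGFBP3 and IGFBP7 through IGF2R, IGF1R and IGF2 to IGF1. With PDGF, IGFBP3 at 60.5 to 65.5 and IGFBP7 at 40.1 to 74.5 CPM per kb overlapped, and without PDGF the levels of IGF1 and IGF2 overlapped.

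IGFBP5 made up 74.4%, 65.7% and 64.1% of the summed per-kilobase level of the 4 binding proteins in SSC PDGF+ replicates 1, 2 and 3. In SSC PDGF- it made up 27.0%, 19.5% and 19.9%. IGFBP4 held 16.8% to 26.2% with PDGF and 43.5% to 60.5% without, and IGFBP3 held 4.43% to 5.32% against 14.4% to 22.8%. The summed level of the 4 was 1137 to 1423 CPM per kb with PDGF and 643 to 940 CPM per kb without.

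**Figure D3:**
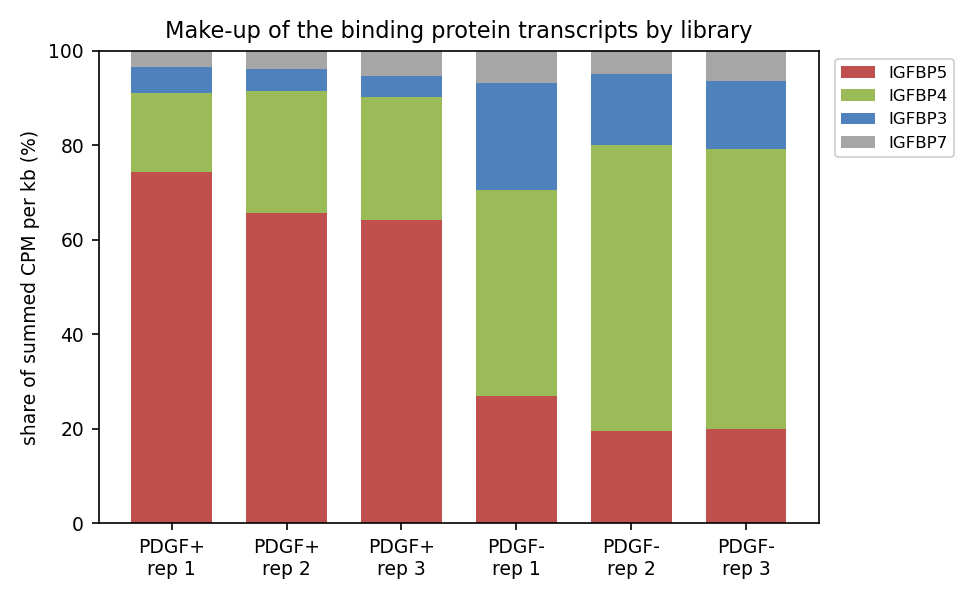
Share of each binding protein in the summed expression per kilobase of IGFBP3, IGFBP4, IGFBP5 and IGFBP7, in percent, as stacked bars for the 6 libraries. IGFBP5 fills 64.1% to 74.4% of each SSC PDGF+ bar and 19.5% to 27.0% of each SSC PDGF- bar, where IGFBP4 is the largest part.

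Markers of stroma and smooth muscle moved beside the binding proteins. Of 6 peritubular myoid markers, 3 fell with PDGF and none rose, where 10.7% of all genes tested were called lower and 7.61% higher. With the replicate block TAGLN and CNN1 were also called lower (edgeR adjusted p = 1.3e-11 and 0.015), and MYH11 was not (0.42). The list summed to 808 to 876 CPM with PDGF and 1292 to 1443 CPM without. DES, a muscle intermediate filament, fell by 3.27 on the log2 scale (standard error 0.24, edgeR adjusted p = 1.5e-04). Among stromal fibroblast markers PDGFRA, COL3A1 and POSTN fell (the counts of PDGFRA are identical to those of its neighbour FIP1L1, so its call is uncertain), while the log2 fold change of PDGFRB was 0.02 and that of COL1A1 0.60, both short of the threshold. The fit blocked on replicate called COL1A1 and COL1A2 higher (edgeR adjusted p = 5.0e-14 and 8.2e-05). It also called DCN and LUM lower (edgeR adjusted p = 2.0e-12 and 1.6e-06). The part of cell composition in the binding protein differences was not tested.

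A list of 53 other IGF pathway genes was examined in the same fit, of which 44 were analysed and 37 tested. Of these, 6 were higher and 3 lower with PDGF, and 28 did not pass the threshold. Of all genes tested, 7.61% were called higher and 10.7% lower. Their median log2 fold change was 0.25, against 0.02 over all genes tested, with 25 positive and 12 negative values. In the fit blocked on replicate, 21 were called higher and 8 lower, beside 31.1% and 29.0% of all genes tested.

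Of 5 proteases and regulators of the binding proteins tested, 4 were called higher and none lower. PAPPA, a metalloprotease that cleaves IGFBP4 and IGFBP5, was at 187, 243 and 247 CPM with PDGF and at 75.6, 105 and 91.7 CPM without. The groups did not overlap, and the log2 fold change was 1.31 (standard error 0.18, edgeR adjusted p = 0.0023), with 1.30 in batch 1 and 1.32 in batch 2. ADAM12, a protease known to cleave IGFBP3 and IGFBP5, was at 100, 105 and 101 CPM with PDGF and 56.3, 51.9 and 56.7 CPM without, which edgeR fitted as 0.90 on the log2 scale (SE 0.13, adjusted p = 0.0029). Its call was lost with replicates 2 and 3 summed (edgeR adjusted p = 0.082).

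STC1 and STC2 encode stanniocalcins, secreted glycoproteins that inhibit PAPPA. STC1 was at 656, 549 and 531 CPM with PDGF and at 25.6, 28.3 and 33.2 CPM without. This was the widest separation among the pathway genes tested, which edgeR fitted as 4.32 on the log2 scale (SE 0.17, adjusted p = 3.0e-05). STC2 was at 14.04, 15.7 and 16.2 CPM with PDGF and 7.06, 9.29 and 6.76 CPM without, which edgeR fitted as 0.99 on the log2 scale (SE 0.20, adjusted p = 0.012). Its edgeR adjusted p was 0.0521 when SSC PDGF+ replicate 2 was left out, 0.0527 for SSC PDGF+ replicate 3, 0.0532 for SSC PDGF- replicate 3, and 0.10 once replicates 2 and 3 were summed. PAPPA, STC1 and STC2 thus all rose with PDGF. In the same list, PAPPA2 had 0, 1 and 0 counts with PDGF against 2, 3 and 4 without, and did not pass the filter on low counts. ADAM28 was not called (log2 fold change 0.43, edgeR adjusted p = 0.74).

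Among further genes listed beside the binding proteins, HTRA3 had a log2 change of 0.99 (adjusted p = 0.056 by edgeR). KAZALD1 had one of 0.63 (adjusted p = 0.15 by edgeR). Both were called higher in the fit blocked on replicate (edgeR adjusted p = 0.0029 and 5.9e-05). The insulin branch had few counts. INS had 1 count in all 6 libraries, and INSR, the insulin receptor, had 26, 28 and 59 counts with PDGF against 26, 43 and 26 without it (log2 fold change -0.07, edgeR adjusted p = 0.93).

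Of 9 receptor substrates and adaptors tested, 1 was higher and 1 lower. IRS1, the docking protein that IGF1R phosphorylates first, was at 91.4 ± 14.6 CPM (SD of 3 libraries) with PDGF and 93.9 ± 5.58 CPM (SD of 3 libraries) without, a log2 change of -0.04 (adjusted p = 0.89 by edgeR). IRS2 was at 2.99 ± 1.44 CPM (SD of 3 libraries) and 4.02 ± 2.41 CPM (SD of 3 libraries), with a log2 change of -0.42 (adjusted p = 0.63 by edgeR). PTPN11, the phosphatase SHP2, was higher, with a fold change of 0.53 in log2 units (adjusted p = 0.027 in edgeR), and GRB14, an adaptor that restrains the insulin receptor, was lower, with a log2 change of -0.71 (adjusted p = 0.025 by edgeR). Of the 6 fits that leave out 1 library, PTPN11 kept its call in 1, that without SSC PDGF- replicate 1 (otherwise 0.051 to 0.11), and GRB14 in 2, those without replicate 1 of either group (otherwise 0.069 to 0.11).

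Of 18 downstream kinases and factors tested, 1 was higher and 2 were lower. FOXO1, a transcription factor that AKT keeps out of the nucleus, was at 69.0, 50.1 and 58.9 CPM with PDGF and at 176, 139 and 138 CPM without, which edgeR fitted as -1.35 on the log2 scale (SE 0.17, adjusted p = 0.0019). PIK3R3, a regulatory subunit of phosphoinositide 3-kinase, had 4, 9 and 12 counts with PDGF against 64, 101 and 115 without it, which edgeR fitted as -3.80 on the log2 scale (SE 0.47, adjusted p = 0.0015). PDPK1, the kinase that activates AKT, had a log2 change of 0.64 (adjusted p = 0.039 by edgeR) and kept its call in 1 of the 6 fits with a library left out, that without SSC PDGF- replicate 2 (otherwise 0.059 to 0.14). The kinases AKT1 and AKT2 had log2 fold changes of 0.20 and 0.43 and did not pass the threshold (edgeR adjusted p = 0.59 and 0.28), while both were called higher in the fit blocked on replicate (edgeR adjusted p = 5.0e-04 and 1.0e-05).

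**Figure D4:**
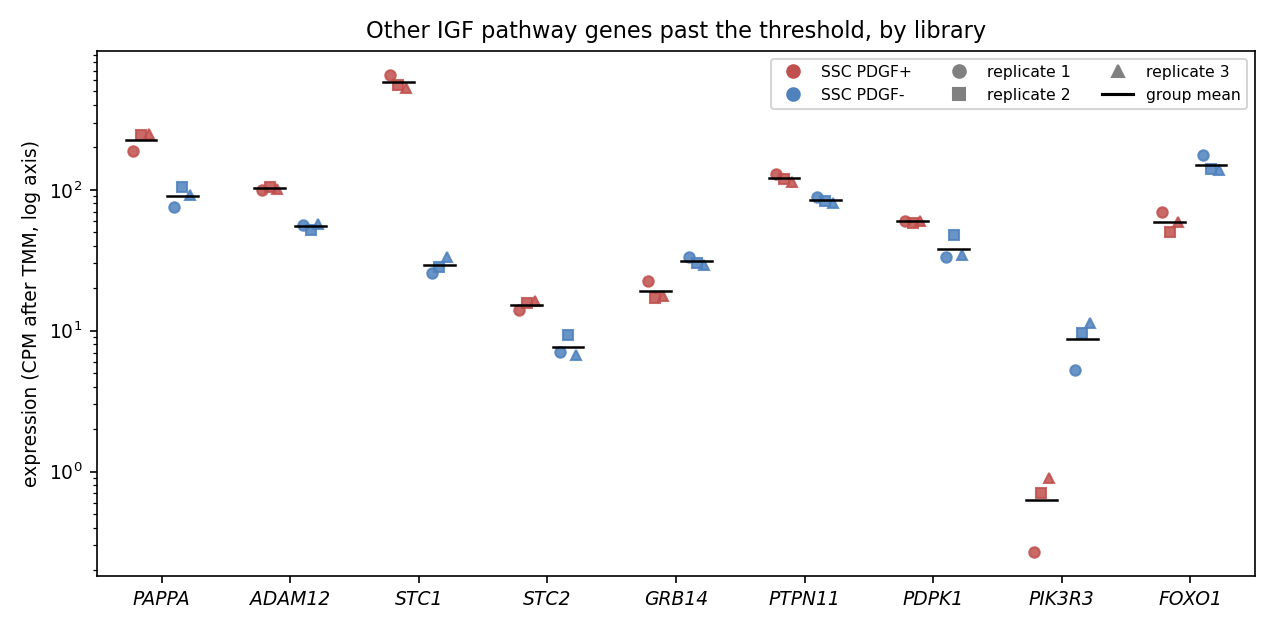
Expression of the 9 other IGF pathway genes past the threshold in each library, in CPM after TMM normalization on a log axis, with SSC PDGF+ in red, SSC PDGF- in blue and a black line at each group mean. The groups are apart for every gene shown, and STC1 has the widest gap upward and PIK3R3 the widest gap downward.

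The RNA-binding proteins named for IGF2 messenger RNA gave no call without a block. IGF2BP2 had a log2 change of -0.17 (adjusted p = 0.57 by edgeR) and IGF2BP3 one of 0.76 (adjusted p = 0.12 by edgeR, and 1.7e-05 in the blocked fit). IGF2BP1 had 2, 0 and 0 counts with PDGF against 7, 15 and 15 without it, and did not pass the filter on low counts. IGFBP1 was not analysed here.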

How the data were processed

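Poly(A)-enriched RNA from 6 libraries was sequenced by the study. The deposited table holds expected counts per gene, and the submitters' processing notes list fastp, HISAT2 2.1.0, SAMtools and featureCounts 2.0.1 with the builds Mmul_10 and Mmul_8.0.1. Which build and annotation served the counts, and the strand setting, are not given in the sources used here. Of 17795 genes, 13 had values that were not whole, none of them a member. These were rounded, so the test planned for counts was kept.

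Counts were tested with edgeR 4.0.16 in R 4.3.3 (filterByExpr, TMM, quasi-likelihood fit, no block, Benjamini-Hochberg over 11539 genes). Fold changes are SSC PDGF+ over SSC PDGF-. CPM use TMM-scaled library sizes, and levels between genes were compared per kilobase of merged RefSeq exons (Mmul_10, release 103). Differences within batches used log2 of CPM with 0.5 counts added. Protein identities came from global alignments in Biopython 1.88 (BLOSUM62, gap open 11, extension 1). Alternatives used limma 3.58.1, DESeq2 1.42.0 and other scalings, filters, thresholds and sample sets.

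The replicate numbers follow the labelled batch. Deviations of same-numbered libraries from their group means correlated with r = 0.81, 0.48 and 0.50, and differently numbered libraries of batch 2 with r = 0.53 and 0.47. The block therefore carries the shared batch, and a pairing by number within batch 2 was not seen. Replicates 2 and 3 differed by more than counting noise (chi-square per degree of freedom 3.43 and 3.66, against 47.2 to 60.2 for replicate 1 with either) and were kept as separate libraries, which does not show that they were separate cultures. They were also summed as an alternative. Totals of 10593805 to 14102697 counts leave genes with few counts, such as IGF1, with wider errors.

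Members, the pathway list and marker lists were chosen with earlier results of these data known. The genes named were all members, all pathway genes past the threshold, a fixed set of further pathway genes, and for each ligand the 3 genes of highest correlation. The other genes given with values (PAPPA2, ADAM28, HTRA3, KAZALD1, INS, AKT1, AKT2, the IGF2BP genes, and markers outside the Leydig cell list) were picked from their lists after their values were seen.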

Additional observations from a re-analysis of the deposited data

How the results depend on the processing

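The results below give numbers of genes called higher and lower in edgeR unless another tool is named. Without a block, 2 members were called higher and 2 lower, 6 and 3 of the other pathway genes, and 878 and 1230 of all genes. The replicate number as a block gave 4 and 3 members, 21 and 8 other pathway genes, and 3587 and 3347 of all genes. Batch as a term gave 3 and 3 members, 21 and 8 pathway genes, and 3604 and 3387 of all genes. In that fit IGF2 was called higher and IGFBP4 lower (edgeR adjusted p = 4.8e-04 and 1.9e-12). Batch 2 alone gave 4 and 3 members, 16 and 7 pathway genes, and 3041 and 3085 of all genes. With replicates 2 and 3 summed there were 1 and 1 members, 2 and 2 pathway genes, and 206 and 487 of all genes. At an adjusted p under 0.01 there were 1 and 1 members, 3 and 2 pathway genes, and 358 and 544 of all genes. With an absolute log2 fold change over 1 required as well, 1 member, 2 pathway genes and 393 of all genes were higher, and 2 members, 2 pathway genes and 890 of all genes lower. Leaving out 1 library gave 1 to 3 members higher and 2 to 3 lower, 3 to 6 and 2 to 5 pathway genes, and 435 to 1284 and 726 to 1726 of all genes. DESeq2 gave 3 and 2 members, and the blocked calls of IGF2, IGFBP4 and IGFBP7 stand beside their values above, and the block changed no other member's call. The members' median log2 fold change was -0.03 with upper quartile factors and -0.10 to 0.19 with 1 library left out.

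The sign turned for IGFBP7 within batch 1 (-0.12) and with 1 library left out (-0.045 to 0.40), INSR (-0.56 to 0.26), IRS1 (-0.11 to 0.10, and 0.030 in batch 2 alone) and IRS2 (-0.83 to 0.085). None of these 4 was called in the fit without a block, and the cause was not tested. IGFBP3, IGFBP5, PAPPA, STC1 and FOXO1 kept their direction and call in all 17 alternative fits at the 0.05 threshold. With the longest transcript in place of merged exons, chosen after seeing the data, IGFBP5 held 67.5% of the binding protein level with PDGF and 21.5% without.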
